A study of Mus musculus with 42 samples.

Results

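The radiation response of Scid pre-B cell lines was set against that of Atm-/- lines, gene by gene. The series holds 42 Affymetrix arrays of 21 mouse lines and 7 genotypes, and the comparison takes 12 of them: 6 arrays of the 3 Scid lines and 6 of the 3 Atm-/- lines, 1 untreated and 1 irradiated array for each line. All 12 arrays were chosen by their labelled genotype and not by any measured value. Every line had been grown from bone marrow of a mouse aged 3 to 5 weeks that carried the Em-Bcl2 transgene, and had been transformed with the pMSCV-v-abl retrovirus, so v-abl and Bcl2 were shared by all groups. The 4 groups are untreated Scid, Scid 2 h after 1 Gy of gamma rays, untreated (mock-treated) Atm-/-, and Atm-/- 2 h after 1 Gy, each with 3 arrays. The labels give DNA-PKcs/Prkdc as the gene mutated in the Scid mice and Atm as that of the Atm-/- mice. The series was designed to set each mutant's transcriptional response to radiation beside the WT response and beside those of the remaining mutants. Arrays of 1 group are labelled as biological repeats with no word on whether their lines came from separate mice. The p-values therefore set a difference against the spread between lines, which the fit pools over all 21 lines.

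Atm is the kinase that is activated at DNA double-strand breaks and phosphorylates many targets, among them p53, its inhibitor Mdm2 and the chromatin around the break. It also starts a signal from the nucleus that frees the transcription factor NF-kB from its inhibitors. Prkdc encodes DNA-PKcs, a related kinase of the end-joining machinery, and the Scid mutation leaves cells with breaks that are joined poorly. v-abl, an oncogenic tyrosine kinase, holds the lines in a cycling pre-B state, and Bcl2 protects cells from apoptosis.

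The level of Atm followed its labels. On the 6 Atm-/- arrays its probe sets had mean signals of 177 ± 56.9 and 184 ± 69.9 (SD, n = 6), against 1099 ± 148 and 552 ± 91.2 on the 6 Scid arrays and 1518 ± 150 and 762 ± 41.3 on the 6 WT arrays. The Scid allele is a point mutation of Prkdc, so its transcript, at 525 ± 70.5 in Scid, 655 ± 165 in Atm-/- and 593 ± 46.2 in WT (SD, n = 6), checks no label. Of 34 pre-B and B-cell genes 32 to 34 had group means above the array median. The surrogate light chain gene Vpreb1 had a signal of at least 22864 on the 12 arrays and Ebf1, a B-lineage transcription factor, of at least 2806, while the recombinase gene Rag2 ranged from 7.69 to 375 and Bcl6, a repressor of activated B cells, from 52.5 to 152. On group means, 1 to 3 of 9 T-cell, 3 to 5 of 14 myeloid, 0 to 1 of 5 erythroid and 2 to 3 of 11 stromal markers lay above the array median. Of the 19 markers that were tested limma called 0 in the comparison. Of them 0 had an unadjusted p under 0.05, against 1970 of all 12363 genes. The summed myeloid signal was 488 to 1894 on untreated and 940.3 to 1434 on irradiated Atm-/- arrays, and 799 to 3260.1 and 1001 to 3320 on those of Scid. The irradiated array of Atm-/- line 2 stood apart with a median signal of 115, as did that of WT line 4 with 103. The 40 arrays other than these had 62.3 to 82.7.

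The response was the change within a line, log2(signal + 16) at 1 Gy minus 0 Gy, so that 1 stands for a change by a factor of 2 for a well-expressed gene and less than the true change for a weak one. Of 12363 genes tested with limma, 213 differed between the responses at a Benjamini-Hochberg adjusted p under 0.05, which is 1.72% of the genes; 126 (1.02%) responded more positively in Scid and 87 (0.704%) more negatively. The test pairs the arrays of a line, and 1970 of the 12363 genes had an unadjusted p under 0.05. Without the line as a block limma called 0 genes, 651 of 12363 had an unadjusted p under 0.05, and the lowest adjusted p was 0.159. Calls also rested on Scid line 1, without which 66 genes were called, and on the spread shared by all 21 lines, since a fit of the 12 arrays alone called 31. Without Scid line 3 there were 132 calls, and without Atm-/- line 2, the line with the array that stood apart, 327, of which 155 were among the 213.

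**Figure D1:**
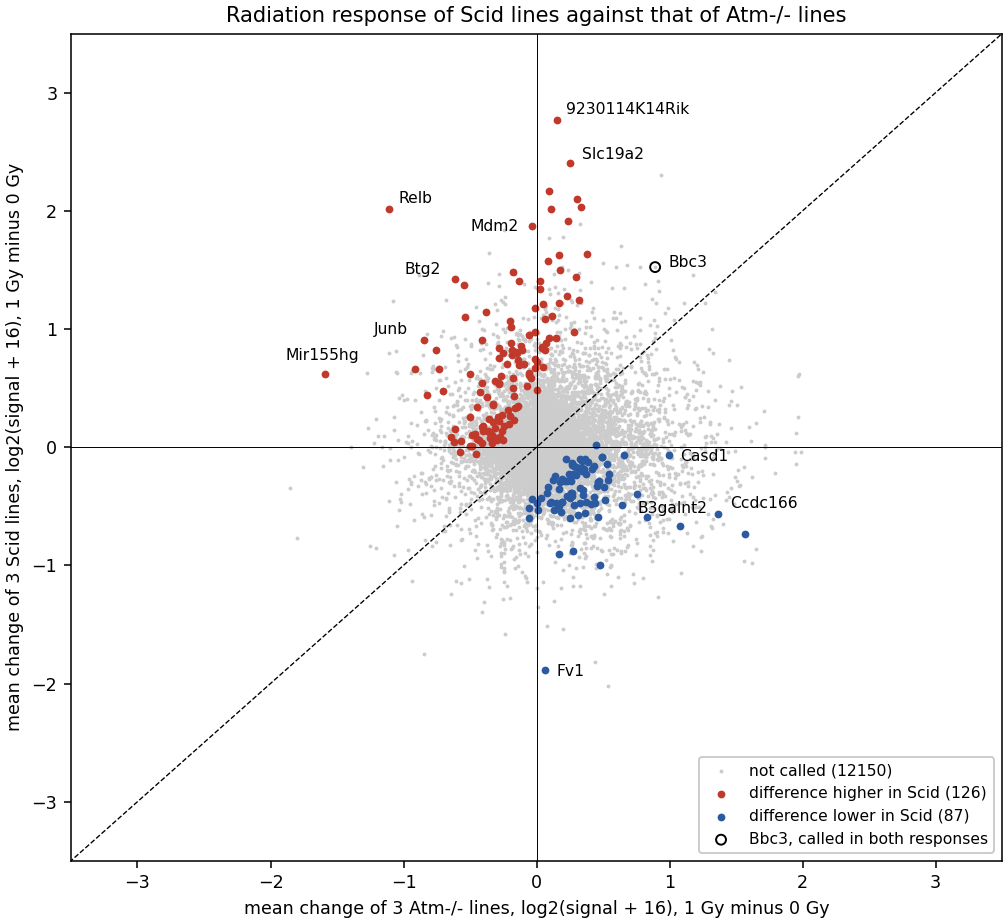
Each point is 1 of 12363 genes, with the mean change of the 3 Atm-/- lines on the x axis and of the 3 Scid lines on the y axis, both as log2(signal + 16) at 1 Gy minus 0 Gy; red and blue points are the 126 and 87 genes called in the difference, and the dashed line marks equal responses. The red points with the highest y values, such as 9230114K14Rik at 2.77 and Slc19a2 at 2.41, lie near 0 on the x axis, and Bbc3 lies to the upper right.

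Most of the higher responses were rises in Scid lines that Atm-/- lines lacked. Taken by itself, the Scid response had 332 calls, 213 up (1.72% of genes) and 119 down (0.963%), 2.69% in all, and the Atm-/- response had 164, 64 up (0.518%) and 100 down (0.809%), 1.33% in all. Of the 126 genes with a higher difference, 76 rose in Scid with no call in Atm-/-, 28 fell in Atm-/- with no call in Scid, 3 did both and 19 were called in neither. Of the 87 with a lower difference, 36 fell in Scid alone, 22 rose in Atm-/- alone, 4 did both and 25 were called in neither. The difference shares its arrays with both responses, so these counts sort the called genes and add no support to them. In 210 of the 213 genes the 3 Scid line changes did not overlap the 3 Atm-/- line changes; over all genes 6.62% had Scid above and 8.43% had Scid below without overlap.

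**Figure D2:**
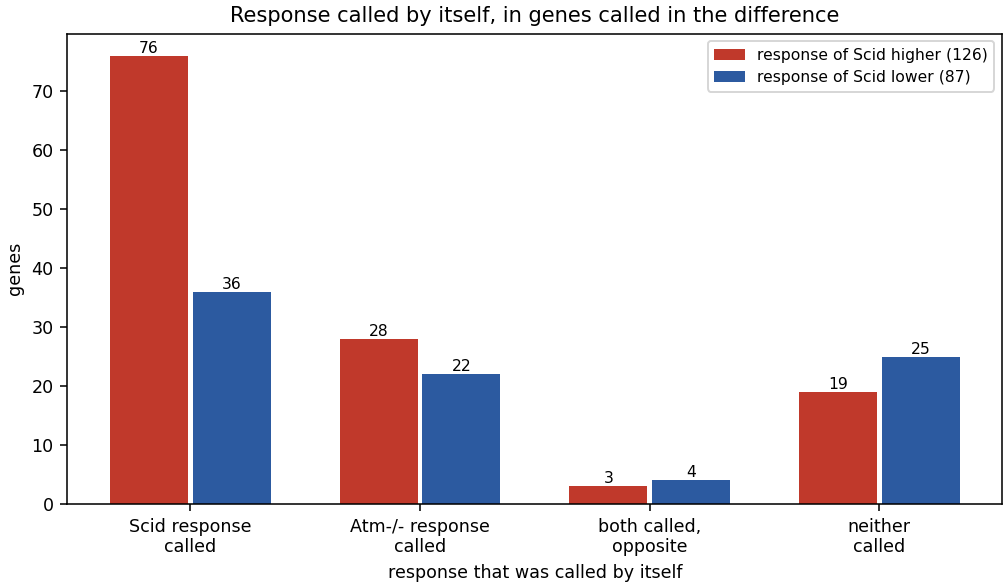
Bars give the number of genes called in the difference (y axis), split by which of the 2 responses was also called by itself (x axis), for the 126 genes with a higher and the 87 with a lower response in Scid. The tallest bar holds 76 genes that were called up in Scid alone.

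WT lines, which were not part of the choice of these arrays, give a reference for the direction. The mean change of the 3 WT lines lay nearer to that of Scid than to that of Atm-/- in 192 of the 213 genes (90.1%), against 59.1% of all genes tested. In 161 of the 213 it lay between them. Over the 126 higher genes the median change was 0.83, 0.43 and 0.62 in Scid lines 1, 2 and 3, -0.15, -0.24 and -0.23 in Atm-/- lines 1, 2 and 3, and 0.62, 0.63 and 0.17 in WT lines 1, 3 and 4. Over the 87 lower genes it was -0.44, -0.29 and -0.26 in Scid, 0.37, 0.26 and 0.25 in Atm-/- and -0.26, -0.35 and -0.12 in WT. These are descriptions, since the Scid and Atm-/- values chose the genes. WT line 4, whose irradiated array had a median signal of 103, had 1581 genes that changed by more than 1 in either direction. WT lines 1 and 3 had 832 and 857. The part of that array in the smaller medians of WT line 4 was not tested.

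Targets of p53, the transcription factor that halts the cycle or kills damaged cells, had the highest share of called genes of the 19 lists. All lists were chosen with earlier results of these data known, so their shares describe the members and test no list. Of 41 measured members, 16 responded more positively in Scid and 0 more negatively, which is 39.0% against 1.02% of all genes, and the median difference was 0.91 against -0.04 over all genes. In the Scid response 25 of the 41 rose (1.72% of all genes did), and in the Atm-/- response 1 rose, Bbc3. The 3 Scid changes lay above the 3 Atm-/- changes in 22 members and below them in 1, against 6.62% and 8.43% of all genes. The median change of the list was 1.27, 0.65 and 0.92 in Scid lines 1, 2 and 3 and 0.13, 0.01 and 0.17 in the Atm-/- lines, which do not overlap. The number called higher was 7 without Scid line 1, 11 without Atm-/- line 2, 11 in the fit of 12 arrays and 5 when variances were not allowed to follow intensity.

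Mdm2, the ubiquitin ligase that p53 induces and that degrades p53, showed the pattern with little spread. Its signals were 1419.7, 1262 and 1032 in untreated and 6714, 3849 and 3625 in irradiated Scid lines 1, 2 and 3. In Atm-/- lines they were 1315, 869 and 1139 before and 1181, 857 and 1205 after. All irradiated Scid arrays lay above every other array of both genotypes, and no Atm-/- line moved by more than 0.15. The changes were 2.23, 1.60 and 1.80 against -0.15, -0.02 and 0.08, a difference of 1.91 ± 0.27 (SE, adjusted p = 8.06e-04). A second probe set gave 1.97.

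Cdkn1a, which encodes the cyclin-dependent kinase inhibitor p21, had signals of 3021, 2911 and 1721 in untreated and 14232, 10856 and 6844 in irradiated Scid lines. Atm-/- lines went from 1337, 296 and 1756 to 1865, 326 and 2306. Each Atm-/- line was slightly higher after radiation, and line 2 stayed far below the rest at both doses. A second, well-expressed probe set gave an Atm-/- response of -0.83 and a difference of 2.40, so the sign of the Atm-/- change depends on the probe set. The difference of the responses was 1.70 ± 0.25 (SE, adjusted p = 0.00102), with an Atm-/- response of 0.33 that did not pass (adjusted p = 0.388). The WT lines changed by 2.21, 1.80 and 1.28.

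Btg2, an antiproliferative gene, had changes of 1.27, 1.71 and 1.28 in Scid and -0.79, 0.30 and -1.36 in Atm-/- lines, and a difference of 2.03 ± 0.29 (SE, adjusted p = 8.06e-04). Its untreated signals in Scid were 931, 72.3 and 619, so line 2 responded as strongly as the others from a far lower level. Its second probe set gave 1.09. Slc19a2, a thiamine transporter, went from 1008, 872 and 707 to 5972, 3791 and 4269 in Scid and from 566, 408 and 1411 to 727, 504 and 1527 in Atm-/-, a difference of 2.15 ± 0.34 (SE, adjusted p = 0.00173). The 3 Scid changes, 2.55, 2.10 and 2.57, were close to each other and far from those of Atm-/-. Ddias, a gene named for suppressing apoptosis after DNA damage, differed by 1.80 ± 0.33 (SE, adjusted p = 0.00546), with 1.99, 2.12 and 2.19 in Scid and 0.53, -0.33 and 0.71 in Atm-/-. Mdm2, Cdkn1a, Btg2, Slc19a2 and Ddias were each called when any 1 of the 6 lines was left out.

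Most of the other p53 targets called are named here after their values were seen, as are those with no call. Trp53inp1, a cofactor of p53, differed by 1.31 (adjusted p = 0.00935), the nuclease Aen by 1.02 (adjusted p = 0.00455), cyclin G1 (Ccng1) by 1.05 (adjusted p = 0.0161) and the RNA-binding protein Zmat3 by 1.64 (adjusted p = 0.0173). Zmat3 changed by -0.15, -1.99 and 0.52 in the Atm-/- lines, so the value of line 2 sets its Atm-/- mean of -0.54. Gene products of DNA repair and bypass were among them: Ercc5 differed by 1.49 (adjusted p = 0.02) and Polk by 1.25 (adjusted p = 0.0477). Apaf1, the scaffold of the apoptosome, differed by 0.63 ± 0.15 (SE, adjusted p = 0.0317), and its call was lost without Scid line 1, Scid line 3, Atm-/- line 1 or Atm-/- line 2, each left out by itself. All 16 had also risen in the Scid response, and 9 further members had risen there with no call in the difference, among them Pmaip1, the death protein Noxa, at 1.36 (adjusted p = 0.0639), and the sestrin gene Sesn2 at 1.33 (adjusted p = 0.0896). Values with no call ranged from -0.69 for Sesn1 (adjusted p = 0.0853) to 1.68 for Plk2 (adjusted p = 0.369). Fas, a death receptor, had a difference of 1.37 that did not pass (adjusted p = 0.223), with changes of 2.98, 1.30 and 2.63 in Scid and 0.33, 1.61 and 0.87 in Atm-/- lines.

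Bbc3, which encodes the BH3-only death protein Puma and is described because of its values, was the 1 gene of 12363 called in the same direction in both responses. Its signals were 507, 486 and 346 in untreated and 1627, 1171 and 1142 in irradiated Scid lines. In Atm-/- lines they were 250.4, 134 and 285 before and 393, 336 and 517 after. All 6 lines were higher after radiation, and the irradiated Atm-/- signals overlapped the untreated Scid signals. It rose by 1.52 in Scid (adjusted p = 1.10e-04) and by 0.89 in Atm-/- (adjusted p = 0.0344), and the difference of 0.63 ± 0.29 (SE, adjusted p = 0.294) did not pass. That 1 gene is 0.301% of the Scid calls and 0.61% of the Atm-/- calls. Over all genes 0.518% were called up in Atm-/- and 1.72% up in Scid, so neither share is above that over all genes.

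**Figure D3:**
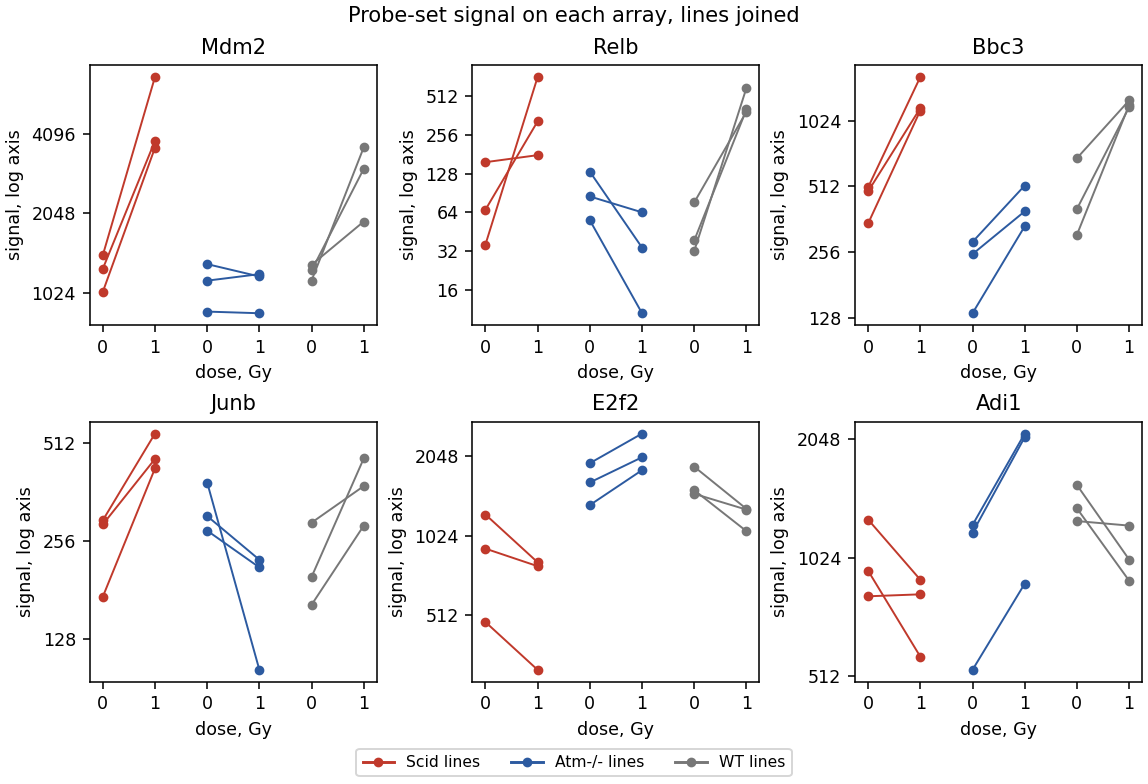
Signals (y axis, log scale) of 6 genes on the untreated and irradiated arrays (x axis, dose in Gy), with the arrays of a line joined, for 3 Scid, 3 Atm-/- and 3 WT lines. Mdm2 is higher after radiation in Scid and WT lines and nearly level in Atm-/- lines, Bbc3 is higher after radiation in all 9 lines, and Junb, E2f2 and Adi1 run in opposite directions in Scid and Atm-/-, except for 1 Scid line of Adi1.

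Targets of NF-kB were the second group with higher responses in Scid. Of 33 measured members, 8 were higher and 0 lower (24.2% against 1.02% and 0.704% of all genes), and the median difference was 0.61. In the Scid response 11 of 33 rose (1.72% of all genes did), and in that of Atm-/- 1 fell, Mir155hg, and 0 rose. The Scid changes lay above those of Atm-/- in 11 members and below in 0, against 6.62% and 8.43% of all genes. Unlike the p53 list, its Scid lines stood apart from each other: the list's median change was 1.23, 0.02 and 0.41 in Scid lines 1, 2 and 3 and -0.06, 0.03 and -0.06 in Atm-/- lines, so that of Scid line 2 lay within the Atm-/- range. The WT lines had 0.91, 1.14 and 0.84. Without Scid line 2 the count was 14, without Scid line 1 it was 2, and without Atm-/- line 2 it was 4. The fit of 12 arrays and the one without a variance trend called 1 each. 

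Relb, a subunit of the alternative NF-kB pathway, had a difference of 3.13 ± 0.59 (SE, adjusted p = 0.00699). Its signals were 35.9, 157 and 67 in untreated and 722, 178 and 326 in irradiated Scid lines, against 85, 133 and 55.5 before and 64, 34 and 10.5 after radiation in Atm-/- lines. The change was 0.17 in Scid line 2, which started highest, and each Atm-/- line was lower after radiation, at signals around or below the array medians. Without Scid line 1 the difference was 2.22 with an adjusted p of 0.0596, and with a pseudocount of 64 it was 2.20. The Atm-/- response of -1.11 did not pass (adjusted p = 0.191).

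Nfkbia, Nfkbie and Bcl3 belong to the IkB family, which is named after inhibitors of NF-kB, and NF-kB itself induces them. Their promoter windows are shown because all 3 held a match to the kappaB consensus that NF-kB binds. The windows, from 250 bases before to 50 after the start of the gene, are those of RefSeq on GRCm38.p6, written 5′ to 3′ along the gene with the match in capitals; both strands were searched and the Bcl3 match reads on both.
Nfkbia, chr12:55492598-55492897, - strand: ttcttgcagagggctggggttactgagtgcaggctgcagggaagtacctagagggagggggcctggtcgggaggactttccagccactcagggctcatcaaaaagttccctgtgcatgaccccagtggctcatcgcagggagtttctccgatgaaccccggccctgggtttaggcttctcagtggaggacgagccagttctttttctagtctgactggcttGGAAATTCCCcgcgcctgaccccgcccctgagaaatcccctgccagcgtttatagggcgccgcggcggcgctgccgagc
Nfkbie, chr17:45555450-45555749, + strand: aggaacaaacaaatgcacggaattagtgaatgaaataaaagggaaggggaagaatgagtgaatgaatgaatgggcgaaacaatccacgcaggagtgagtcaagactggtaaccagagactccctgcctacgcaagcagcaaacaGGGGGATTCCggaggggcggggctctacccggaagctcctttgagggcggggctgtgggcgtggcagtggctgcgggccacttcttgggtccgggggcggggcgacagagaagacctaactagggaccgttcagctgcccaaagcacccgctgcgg
Bcl3, chr7:19822706-19823005, - strand: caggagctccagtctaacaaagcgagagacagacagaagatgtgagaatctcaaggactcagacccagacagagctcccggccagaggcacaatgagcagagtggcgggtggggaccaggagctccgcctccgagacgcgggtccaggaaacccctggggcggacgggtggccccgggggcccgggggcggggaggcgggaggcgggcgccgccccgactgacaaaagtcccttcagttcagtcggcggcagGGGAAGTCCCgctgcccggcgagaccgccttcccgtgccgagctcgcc
Of the 7 called members with a window, 4 held the motif, against 8.46% of all 32851 windows and 10.3% of those of genes tested. Over all called genes the motif was in 14.5% of the windows of those with a higher and 12.6% of those with a lower response. In Nfkbia the match began 29 and in Nfkbie 106 bases before the start. A match describes the letters in a window and not a bound site.

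Nfkbia, the classical inhibitor, was abundant and moved by a smaller factor: 10342, 5794 and 6993 in untreated and 19445, 8263 and 12045 in irradiated Scid lines, 7422, 5125 and 7879 before and 5609, 4952 and 8107 after radiation in Atm-/- lines. The changes were 0.91, 0.51 and 0.78 against -0.40, -0.05 and 0.04, with a difference of 0.87 ± 0.14 (SE, adjusted p = 0.00199). The other probe sets gave 1.01, 1.06 and 0.93, and the dim one -0.06. Nfkbie changed by 3.14, 0.78 and 1.81 in Scid and 0.34, -0.31 and 0.68 in Atm-/- lines, a difference of 1.68 ± 0.37 (SE, adjusted p = 0.0205). Bcl3 was weakly expressed, at 55.6, 5.04 and 119 before and 508, 50.7 and 367 after radiation in Scid, and differed by 1.90 ± 0.46 (SE, adjusted p = 0.0317). Scid line 1 had the highest change of the 3 lines in each of these genes. Without it the calls of Nfkbie and Bcl3 were lost, as was that of Nfkbie without Scid line 3 or Atm-/- line 2 and that of Bcl3 without Atm-/- line 1.

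Surface and survival genes of the list followed. Icam1, an adhesion molecule, went from 765, 859 and 831 to 4534, 1389 and 1963 in Scid lines and from 1166, 845 and 703 to 941, 673 and 756 in Atm-/- lines, a difference of 1.66 ± 0.30 (SE, adjusted p = 0.00465). The irradiated Scid signals were all above those of Atm-/- at either dose. Birc3, an inhibitor of apoptosis, differed by 0.96 ± 0.21 (SE, adjusted p = 0.02), with 1.56, 0.43 and 0.42 in Scid and -0.15, -0.46 and 0.14 in Atm-/- lines, its call being lost without Scid line 1 or Atm-/- line 2. Ltb, a cytokine of the TNF family named after its value was seen, differed by 1.12 (adjusted p = 0.0479). Cd40, the costimulatory receptor, likewise named, just missed the threshold at 2.09 (adjusted p = 0.056), with a change of 3.77 in Scid line 1 and 0.85 and 0.91 in the others. Among members with no call, Cd69, an early activation marker, had 1.06 (adjusted p = 0.164) and passed in the Scid response alone (1.56, adjusted p = 0.00115).

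Mir155hg, the host transcript of miR-155, was called in the Atm-/- response and not in that of Scid. Its signals were 37.7, 81.6 and 78.9 in untreated and 10.8, 12.2 and 7.92 in irradiated Atm-/- lines, and 73.6, 57.1 and 7.02 before and 144, 47.1 and 38.4 after radiation in Scid lines. Nearly all lie near or below the array medians, where signals are least precise. It fell by 1.59 in Atm-/- (adjusted p = 0.0441), the Scid response of 0.62 did not pass, and the difference was 2.22 ± 0.56 (SE, adjusted p = 0.0408). That call was lost in 17 of 31 alternatives.

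**Figure D4:**
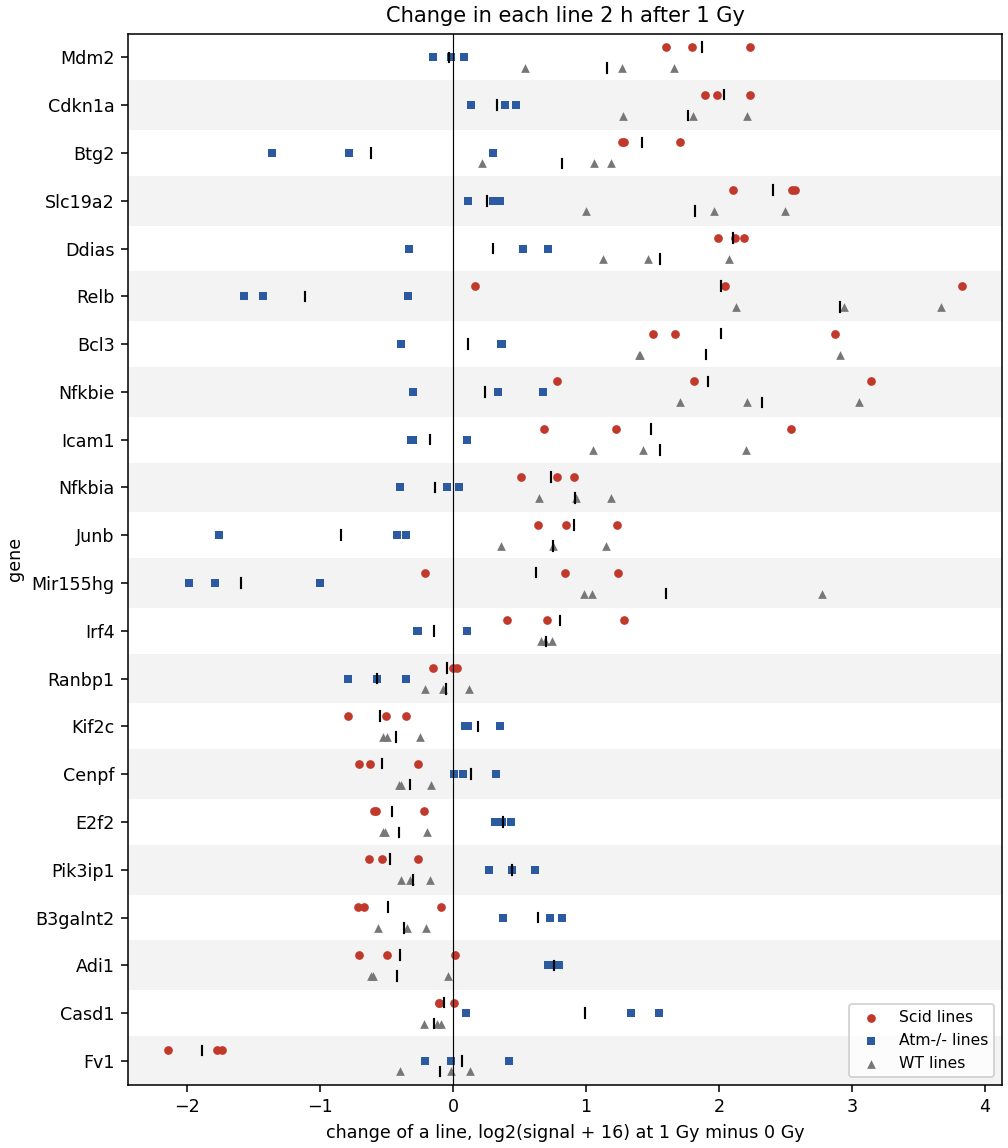
Change of each line (x axis, log2(signal + 16) at 1 Gy minus 0 Gy) for 22 genes (y axis); points are lines, short bars are group means, circles Scid, squares Atm-/- and triangles WT. The top 14 genes have Scid means above Atm-/- means, with Scid line 2 the lowest circle in Relb, Nfkbie, Icam1 and Nfkbia, and from Kif2c down the order is turned.

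Genes of the G2 phase and mitosis went the other way. Of 38 measured, 8 responded more negatively in Scid and 0 more positively (21.1% against 0.704% of all genes), and the median difference was -0.24. In the Scid response 15 of the 38 fell (0.963% of all genes did). In that of Atm-/- limma called 0, with 5 at an unadjusted p under 0.05, against 1870 of all 12363 genes. The 3 Scid changes lay below the 3 Atm-/- changes in 15 members and above in 0, against 8.43% and 6.62% of all genes. In bulk RNA, less of a transcript per cell and fewer cells in mitosis cannot be told apart. The median change was -0.45, -0.22 and -0.24 in Scid lines and -0.05, -0.20 and 0.14 in Atm-/- lines. The highest Scid and the lowest Atm-/- value lie close together. In WT lines it was -0.12, -0.10 and -0.16, within the Atm-/- range and above every Scid line, so the list's WT medians lay with Atm-/-. Without Atm-/- line 2 there were 11 calls, without Scid line 1 there were 2 and in the fit of 12 arrays 0. The largest difference among the 8, that of the kinesin Kif18a, was -0.92.

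Kif2c, a kinesin that takes apart microtubules at centromeres, had signals of 1803, 1493 and 1754 in untreated and 1034, 1044 and 1367 in irradiated Scid lines. In Atm-/- lines they were 1608, 1798 and 1830.1 before and 1715, 1941 and 2344 after. Every Scid line was lower and every Atm-/- line higher after radiation on this probe set, and the difference was -0.74 ± 0.13 (SE, adjusted p = 0.00376). Other probe sets of Kif2c gave differences of -0.36, -0.45 and, at a dim one, -0.62. Their Atm-/- responses were -0.25, -0.03 and 0.40, so the rise in Atm-/- lines depends on the probe set. Cenpf, a kinetochore protein, changed by -0.71, -0.63 and -0.27 in Scid and 0.07, 0.01 and 0.32 in Atm-/- lines, a difference of -0.67 ± 0.12 (SE, adjusted p = 0.00455). Its 2 other probe sets, both dimmer, gave -0.63 and -0.08. Aspm, a spindle pole protein, changed by -0.56, -0.63 and -0.34 in Scid and -0.05, -0.15 and 0.04 in Atm-/- lines, a difference of -0.46 ± 0.09 (SE, adjusted p = 0.013); another of its probe sets gave 0.03. Kif18a changed by -0.69, -0.84 and -0.15 in Scid and 0.34, 0.66 and 0.10 in Atm-/- lines (adjusted p = 0.0146), so Scid line 3 moved least in Kif2c, Cenpf, Aspm and Kif18a. Without Scid line 1 the calls of Aspm and Kif18a were lost, and that of Kif18a also without Scid line 2.

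Ect2, Cenpe, Nek2 and Aurka, named after their values were seen, complete the 8, at -0.66, -0.54, -0.54 and -0.41. Plk1, the mitotic polo-like kinase, likewise named, fell in Scid by 0.62 (adjusted p = 5.72e-04) but its difference of -0.45 did not pass (adjusted p = 0.109), and the Atm-/- lines had changes of -0.05, -0.45 and -0.02. Late cell-cycle genes often carry a cell-cycle homology element, TTTGAA, which is bound by the MuvB complexes through which p53 and p21 repress them. The windows of members with that element are shown for Kif2c, Cenpf, Aspm and Aurka, with the element, or TTCAAA where it lies on the other strand, in capitals.
Kif2c, chr4:117178723-117179022, - strand: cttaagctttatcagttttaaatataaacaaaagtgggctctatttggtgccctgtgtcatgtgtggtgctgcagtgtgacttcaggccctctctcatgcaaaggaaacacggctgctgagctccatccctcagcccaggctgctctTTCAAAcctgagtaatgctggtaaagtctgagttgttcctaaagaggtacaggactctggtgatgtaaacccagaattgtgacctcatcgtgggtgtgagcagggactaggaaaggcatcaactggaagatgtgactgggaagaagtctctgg
Cenpf, chr1:189688037-189688336, - strand: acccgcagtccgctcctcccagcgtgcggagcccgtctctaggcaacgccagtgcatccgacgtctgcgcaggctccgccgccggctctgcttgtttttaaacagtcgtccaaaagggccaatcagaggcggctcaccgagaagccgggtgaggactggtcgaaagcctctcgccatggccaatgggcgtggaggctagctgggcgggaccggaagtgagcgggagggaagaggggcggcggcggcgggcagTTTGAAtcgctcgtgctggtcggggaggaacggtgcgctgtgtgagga
Aspm, chr1:139454523-139454822, + strand: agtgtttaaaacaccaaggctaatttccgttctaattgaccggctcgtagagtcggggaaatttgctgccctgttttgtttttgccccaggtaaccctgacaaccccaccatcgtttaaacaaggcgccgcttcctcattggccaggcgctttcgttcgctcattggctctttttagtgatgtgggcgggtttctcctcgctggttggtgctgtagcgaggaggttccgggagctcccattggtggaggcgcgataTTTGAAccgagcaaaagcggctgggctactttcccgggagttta
Aurka, chr2:172370521-172370820, - strand: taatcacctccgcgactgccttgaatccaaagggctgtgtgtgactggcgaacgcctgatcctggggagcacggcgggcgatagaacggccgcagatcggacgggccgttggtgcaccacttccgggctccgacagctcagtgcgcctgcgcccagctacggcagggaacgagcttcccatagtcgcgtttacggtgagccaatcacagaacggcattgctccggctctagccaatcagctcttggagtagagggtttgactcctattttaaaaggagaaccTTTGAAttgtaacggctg
Of the 8 called members 5 held the element in at least 1 window, 6 of 9 windows in all, against 17.9% of all windows and 12.3% of those of genes tested. Over all called genes it was in 26.4% of the windows of those with a lower and 15.2% of those with a higher response. The element began at base 3 after the start in Cenpf, 7 in Aspm and 33 in Aurka, and 103 bases before it in Kif2c.

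Of 41 G1/S and replication genes 1 was called, E2f2 (2.44% against 1.72% of all genes), and the median difference was -0.03. With every kept probe set tested, 2 of the list were called higher and 1 lower, against 211 and 143 of all 23245 probe sets. Rrm2, with no call at 0.39 (adjusted p = 0.0747), had differences of 0.68 and 0.68 on other bright probe sets. E2f2, a transcription factor of S-phase entry, was among the 7 genes that were called in opposite directions in both responses. Its signals fell from 1233, 482 and 915 to 812, 317 and 785 in Scid lines and rose from 1339, 1632 and 1931 to 1817, 2034 and 2501 in Atm-/- lines. All 3 lines of each genotype moved the same way, -0.59, -0.58 and -0.22 against 0.44, 0.31 and 0.37, and the difference was -0.84 ± 0.12 (SE, adjusted p = 7.16e-04). The untreated Scid level was also lower, by 0.97 (adjusted p = 0.0496), and a second probe set showed a difference of -0.06. WT lines changed by -0.51, -0.53 and -0.20.

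The other genes called in opposite directions were B3galnt2, Pik3ip1 and Cenpc1, lower in Scid and higher in Atm-/-, and Junb, Leng8 and Rab21, higher in Scid and lower in Atm-/-; Cenpc1, Leng8 and Rab21 are named after their values were seen. Pik3ip1, an inhibitor of PI3-kinase, had signals of 812, 625 and 923 before and 557, 517 and 591 after radiation in Scid lines, and 368, 434 and 828 before and 573, 594 and 999.8 after in Atm-/- lines, a difference of -0.92 ± 0.14 (SE, adjusted p = 0.00133). Every line moved with its genotype on this probe set. A second one gave a difference of -0.25 and an Atm-/- response of -0.07, so it does not show opposite directions. B3galnt2, a glycosyltransferase, differed by -1.13 ± 0.15 (SE, adjusted p = 7.16e-04), with -0.67, -0.71 and -0.09 in Scid and 0.73, 0.38 and 0.82 in Atm-/- lines; 2 other probe sets gave -0.27 and -0.28. Junb, an AP-1 subunit, went from 296, 288 and 173 to 547, 457 and 428 in Scid and from 275, 305 and 387 to 212, 224 and 103 in Atm-/-, a difference of 1.75 ± 0.30 (SE, adjusted p = 0.00365). Atm-/- line 3 moved most, by -1.76. Cenpc1, a centromere protein, differed by -0.84 (adjusted p = 7.16e-04), Leng8 by 1.39 (adjusted p = 0.00455) and the Rab GTPase Rab21 by 0.69 (adjusted p = 0.00102).

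Among immediate-early and stress genes 3 of 29 were called, all higher (10.3% against 1.02% of all genes), with a median difference of 0.12. Without Scid line 1 or Scid line 3, each left out by itself, 1 of the list was called, and in the fit of 12 arrays 0. Beside Junb they were Ier5, at 0.78 ± 0.18 (SE, adjusted p = 0.0232), and Gadd45g, at 1.12 ± 0.26 (SE, adjusted p = 0.0257). Gadd45g, a stress-induced regulator of growth arrest, already differed without radiation: its untreated signals were 424, 1118 and 947 in Scid and 82.5, 255 and 137 in Atm-/- lines, a log2 difference of 2.29 (adjusted p = 0.0284). Neither of its responses passed by itself. Ier5 lost its call without Scid line 1, Scid line 3, Atm-/- line 2 or Atm-/- line 3, and Gadd45g without Scid line 1, Scid line 3 or Atm-/- line 1. Jun, which pairs with Fos in AP-1, had 0.77 (adjusted p = 0.128).

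In the pre-B and B-cell list 3 of 34 were called (8.82% against 1.72% of all genes) and the median difference was -0.07, close to that of all genes. Spib, an Ets factor of B cells, changed by 1.65, 1.55 and 1.01 in Scid and 0.36, -0.09 and -0.19 in Atm-/- lines, a difference of 1.38 ± 0.27 (SE, adjusted p = 0.00935). Irf4, which drives pre-B cells towards light chain rearrangement, had signals of 2276, 2481 and 2223 before and 5576, 3286 and 3644 after radiation in Scid, and 590.0, 1806 and 2487 before and 634, 1503 and 2055 after in Atm-/- lines, a difference of 0.94 ± 0.17 (SE, adjusted p = 0.00448). All irradiated Scid values exceeded all others on this probe set, while a dimmer one gave a difference of 0.22. Cd22, an inhibitory receptor, went the other way, with -0.51, -0.36 and -0.41 against -0.06, -0.09 and 0.25 and a difference of -0.46 ± 0.10 (SE, adjusted p = 0.0216). Fcrla, an Fc receptor-like protein of B cells outside that list, differed by -1.15 ± 0.21 (SE, adjusted p = 0.00536), with -0.97, -1.16 and -0.49 in Scid lines and -0.81, -0.85 and -0.65 in WT lines; its 2 other probe sets gave -0.83 and, at a dim one, -0.02. Spib lost its call without Scid line 1, and Cd22 without Scid line 1, Scid line 3 or Atm-/- line 3.

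The remaining lists held 0 to 2 calls each. Of 21 homing and adhesion genes 1 was higher, Icam1 (4.76%), and of 28 death and survival genes 2, Birc3 and Apaf1 (7.14%), against 1.02% of all genes. Bcl2l11, which encodes the death protein Bim, had 0.79 (adjusted p = 0.0862). Of 24 cytokine signalling genes 2 were lower, Pik3ip1 and Stat5a (8.33% against 0.704% of all genes); Stat5a had -0.67 ± 0.16 (SE, adjusted p = 0.0348), while its other probe set gave 0.62. Of 22 hypoxia and glycolysis genes 2 were lower (9.09%), the growth factor Vegfa at -0.68 ± 0.14 (SE, adjusted p = 0.0161) and the kinase Pdk1 at -0.47 ± 0.12 (SE, adjusted p = 0.0434), and in both another probe set had the opposite sign (0.05 for Vegfa and 0.42 for Pdk1). Pdk1 lost its call in 16 of 31 alternatives, among them the fits without Scid line 1, Scid line 2, Atm-/- line 1 and Atm-/- line 2. Vegfa lost it without Scid line 1, Scid line 2 or Atm-/- line 1, and Stat5a without Scid line 1, Scid line 3 or Atm-/- line 3. By limma, 0 of 39 break signalling and repair genes were called (2 at an unadjusted p under 0.05), 0 of 19 interferon genes (0 unadjusted) and 0 of 22 heat shock and unfolded protein genes (4 unadjusted). Over all 12363 genes, 1970 had an unadjusted p under 0.05 by limma. These counts rest on 1 probe set per gene. With every kept probe set tested, 1 repair gene was called higher, 3 heat shock and unfolded protein genes lower and 0 interferon genes. In that fit 211 of 23245 probe sets were called higher and 143 lower, and any set of a gene could call it. Among the repair and heat shock genes, Chek1, a checkpoint kinase, had -0.47 (adjusted p = 0.074) and the heat shock gene Hspa1b had 1.26 (adjusted p = 0.166), with 3.20, 0.52 and 0.77 in Scid lines.

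**Figure D5:**
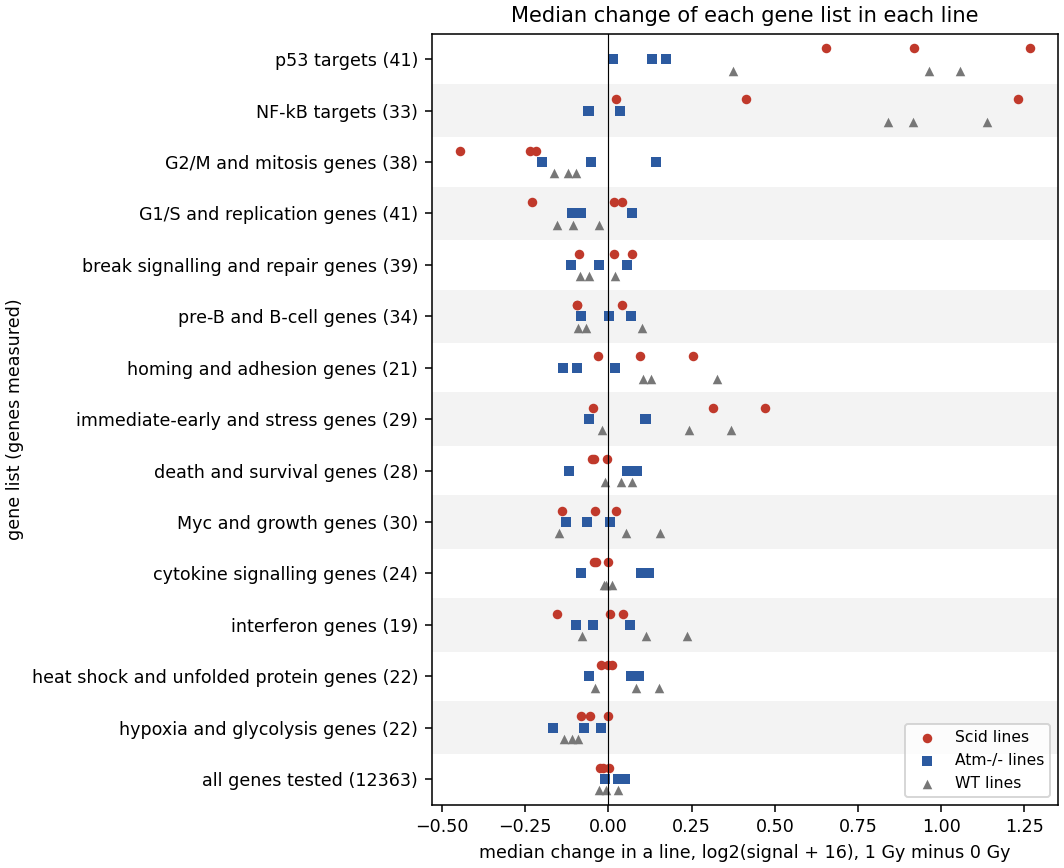
Median change of each gene list (y axis, with the number of genes measured) in each line (x axis, log2(signal + 16) at 1 Gy minus 0 Gy) for 3 Scid, 3 Atm-/- and 3 WT lines. The Scid circles of p53 targets lie between 0.65 and 1.27, right of all Atm-/- squares, those of NF-kB targets spread from 0.02 to 1.23, and the medians of all genes tested lie near 0.

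Outside the lists, 3 further genes had large positive differences. The transcript 9230114K14Rik went from 521, 431 and 308 to 4857, 2163 and 2316 in Scid lines and from 425, 189.7 and 371 to 439.6, 222 and 428 in Atm-/- lines, a difference of 2.62 ± 0.44 (SE, adjusted p = 0.00324). Each irradiated Scid array was above every other array of both genotypes by a wide margin. Enc1, an actin-binding protein, differed by 2.07 ± 0.45 (SE, adjusted p = 0.0173), with Atm-/- changes of -0.21, -0.23 and 0.72, and lost its call without Scid line 1 or Atm-/- line 1; a second probe set gave 1.11. Creld1, an endoplasmic reticulum protein, differed by 1.92 ± 0.49 (SE, adjusted p = 0.0408); its Scid lines changed by 1.75, 0.13 and 2.25, and its call was lost in 15 of 31 alternatives.

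Several of the largest negative differences, those of Fv1, Ccdc166, Ppp4r1l-ps and Podn, belonged to weakly expressed genes. Fv1, a restriction factor against murine leukaemia virus, went from 129, 108 and 99.7 to 16.7, 20.1 and 18.7 in Scid lines, with changes of -2.14, -1.78 and -1.74, while Atm-/- lines changed by -0.21, 0.42 and -0.01 and WT lines by -0.40, -0.02 and 0.12. Its difference was -1.95 ± 0.45 (SE, adjusted p = 0.0232), so WT lay with Atm-/- in this gene, and the call was lost without Scid line 1, Scid line 3 or Atm-/- line 2. Ccdc166 differed by -1.93 ± 0.50 (SE, adjusted p = 0.0498) and the pseudogene Ppp4r1l-ps by -1.75 ± 0.43 (SE, adjusted p = 0.0376), both at weak signals. Ccdc166 lost its call in 26 of 31 alternatives and Ppp4r1l-ps in 8, and 4 of 6 other probe sets of Ppp4r1l-ps had the opposite sign. Ccn3, a matricellular protein, differed by -1.48 ± 0.32 (SE, adjusted p = 0.0178) from levels that spread widely between lines, at 72.7, 25.2 and 229 in untreated Scid and 8.42, 242 and 1793 in untreated Atm-/- lines. Podn, a matrix proteoglycan, differed by -1.42 (adjusted p = 0.0216) and Snn by -1.08 (adjusted p = 0.0274), with 0.04 in another, dim probe set of Snn. Without Scid line 1 or Atm-/- line 1, each left out by itself, Ccn3, Podn and Snn lost their calls, and Snn also without Atm-/- line 3.

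Some calls lay in the Atm-/- response alone. Adi1, an enzyme of the methionine salvage pathway, went from 531, 1186 and 1240.5 to 879.6, 2074 and 2118 in Atm-/- lines, nearly the same change in each (0.71, 0.80 and 0.76), and from 949, 1280.4 and 817 to 574, 900.3 and 827 in Scid lines. Its difference was -1.16 ± 0.18 (SE, adjusted p = 0.00195), but 2 other probe sets gave 0.09 and -0.10. Casd1, a sialic acid acetyltransferase, differed by -1.06 ± 0.21 (SE, adjusted p = 0.011) from unequal starting points, and the call was lost without Scid line 1. Its untreated signals were 1.13, 12.6 and 756 in Atm-/- and 1168, 1795 and 2016 in Scid lines, so Atm-/- lines 1 and 2 were near the bottom of the scale and their changes of 1.55 and 1.33 end at 34.1 and 56.1. The untreated difference, Scid minus Atm-/-, was 4.50 (adjusted p = 0.0321).

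Ranbp1, a regulator of nuclear transport and the 1 of 30 Myc and growth genes called (3.33% against 1.72% of all genes), fell in Atm-/- lines, from 15468, 13915 and 17149 to 12065, 9336 and 9921, and stayed between 11057 and 12584 on the 6 Scid arrays. The difference was 0.53 ± 0.11 (SE, adjusted p = 0.0146), and its call was lost without Scid line 3 or Atm-/- line 3. Of the 28 genes called down in Atm-/- alone, Selenok, an endoplasmic reticulum selenoprotein, and Cox8a, Uqcr10 and Uqcr11, subunits of the respiratory chain, are named after their values were seen. No list of respiratory chain genes was made, so how the others moved is not given. Selenok went from 3783, 3939.7 and 3841 to 2535, 2743 and 2138 in Atm-/- and from 3920.3, 4735 and 3829 to 4618, 4243 and 4306 in Scid lines. Cox8a changed by -0.31, -0.32 and -1.23, Uqcr10 by -0.58, -0.21 and -0.56 and Uqcr11 by -0.25, -0.36 and -0.48 in the Atm-/- lines, and by no more than 0.24 in any Scid line.

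RNA quality values differed between the arrays of the Atm-/- lines. The ratio of 3′ to 5′ actin signal was 1.37, 1.44 and 1.32 on the untreated and 1.22, 1.61 and 1.59 on the irradiated arrays of Atm-/- lines 1, 2 and 3, so it was lower after radiation in line 1 and higher in the others. It was 1.32 to 1.43 on the Scid arrays, and the Gapdh ratio stayed between 0.761 and 0.819 on all 12. In Atm-/- line 2, 1619 genes changed by more than 1 in either direction, against 787 to 954 in the other 5 lines. The Atm-/- response had 309 calls without line 1, 260 without line 2 and 86 without line 3, and 0 in the fit of 12 arrays, with 1 call when lines were not paired. The part of the array differences in the Atm-/- calls was not tested. Atm-/- line 3 was also the 1 line of 6 with high Eif2s3y, a Y-linked gene, and low Xist, an RNA of the inactive X chromosome.

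Before radiation the lines differed in 174 of 12363 genes (1.41%), 81 higher (0.655%) and 93 lower (0.752%) in Scid, by limma on the untreated arrays. The untreated arrays also enter the responses, so no overlap between the 2 sets of calls is given. Of 41 p53 targets limma called 0 untreated, with 6 at an unadjusted p under 0.05, against 1928 of all 12363 genes. The median untreated difference of these targets was 0.30. Cdkn1a, at 1.46, did not pass (adjusted p = 0.347), with Atm-/- line 2 the lowest array. Of 38 G2/M genes 2 were lower in untreated Scid. Atm itself was higher in Scid by 1.81 (adjusted p = 0.00114). Leaving out 1 line changed the count to between 79 and 236, and the fit of the 6 untreated arrays alone called 1.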

How the data were processed

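RNA of 21 mouse pre-B lines was hybridised to 42 Affymetrix arrays, 1 untreated and 1 irradiated array per line. The deposited values are linear MAS5 signal intensities, made by the authors per the submitters' processing notes; every array's 2% trimmed mean is 500, which sets the arrays on 1 scale and leaves low signals imprecise. Of 45101 probe sets, 34945 had 1 gene symbol, 932 several and 9160 none; several-gene and unnamed sets were not named, and 34741 symbols were found in the RefSeq table. Probe sets above their own array's median on at least 3 arrays were kept, and the set with the highest mean log2 stood for its gene, which left 12363 genes. limma 3.58.1 (R 4.3.3) fitted log2(signal + 16) over all 42 arrays with each line as a block and a radiation term per genotype (14 residual degrees of freedom, eBayes with trend, two-sided, Benjamini-Hochberg over all genes, threshold 0.05); 21 untreated arrays gave the untreated contrast.

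Arrays with the same line number deviated together from their group means. The 6 Scid and Atm-/- pairs correlated at 0.480 to 0.643 and all 21 pairs at 0.354 to 0.643. Scid and Atm-/- arrays of other numbers correlated at no more than -0.185. Deviations cancel within a group, so positive values of same-number pairs force negative values for the others, which add no support to the pairing. The arrays have no read depth; their number, 3 a group, limits the precision. The most alike pair of the 12 arrays correlated at 0.980 and shared 0 identical values. Named genes are the 14 largest positive and 10 largest negative called differences without overlap between lines, and up to 4 members of each list with the smallest p; the text says where another was chosen after its values were seen. The comparison, the members and the lists were chosen with earlier results of these data known. Scripts were tested on simulated data. Trp53 had no kept probe set with 1 symbol and is not analysed here. Promoters are RefSeq windows on GRCm38.p6; the kappaB consensus and TTTGAA were searched on both strands. Alternatives covered the pseudocount, scaling, filter, probe set choice, variance trend, samples fitted, pairing and leaving out each line.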

Additional observations from a re-analysis of the deposited data

Results flagged for a closer look

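Each result here is a tested difference between the radiation responses of Scid and Atm-/- lines, taken from limma's fit of the change within a line with Benjamini-Hochberg adjustment; with 3 lines a group no test for a single distant sample was made. Over all genes, 213 differed. Among the named genes, 22 responded more positively in Scid, in log2 units: Relb by 3.13, 9230114K14Rik by 2.62, Mir155hg by 2.22, Slc19a2 by 2.15, Enc1 by 2.07, Btg2 by 2.03, Creld1 by 1.92, Mdm2 by 1.91, Bcl3 by 1.90, Ddias by 1.80, Junb by 1.75, Cdkn1a by 1.70, Nfkbie by 1.68, Icam1 by 1.66, Spib by 1.38, Gadd45g by 1.12, Birc3 by 0.96, Irf4 by 0.94, Nfkbia by 0.87, Ier5 by 0.78, Apaf1 by 0.63 and Ranbp1 by 0.53. 20 responded more negatively: Fv1 at -1.95, Ccdc166 at -1.93, Ppp4r1l-ps at -1.75, Ccn3 at -1.48, Podn at -1.42, Adi1 at -1.16, Fcrla at -1.15, B3galnt2 at -1.13, Snn at -1.08, Casd1 at -1.06, Kif18a at -0.92, Pik3ip1 at -0.92, E2f2 at -0.84, Kif2c at -0.74, Vegfa at -0.68, Stat5a at -0.67, Cenpf at -0.67, Pdk1 at -0.47, Cd22 at -0.46 and Aspm at -0.46. In all of them the Scid line changes lay on 1 side of the Atm-/- line changes. For the genes named for the largest differences, this was a condition of being named. Of the 213 called genes 210 had no overlap, while over all genes 6.62% had Scid above and 8.43% had Scid below. The lack of overlap in the named genes therefore adds no support to their calls.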

How the results depend on the processing

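The number of genes whose responses differed was 354 with every kept probe set tested, 31 in a fit of the 12 Scid and Atm-/- arrays alone, which has fewer arrays to estimate the spread, 50 with eBayes without trend, and 0 without the replicate block that pairs the arrays of a line. Leaving out 1 of the 21 lines gave 66 to 327, with 66 without Scid line 1, 132 without Scid line 3 and 327 without Atm-/- line 2. For the Scid response these were 107 with 12 arrays, 195 without trend, 9 without the block, and 66 to 387 with a line left out. For the Atm-/- response they were 321 with every probe set, 0 with 12 arrays, 50 without trend, 1 without the block, and 86 to 309 with a line left out. For the untreated contrast they were 92 with no filter on low values, 290 with every probe set, 1 in the fit of the 6 untreated Scid and Atm-/- arrays, and 79 to 236 with a line left out. No paired fit exists for the untreated contrast, with 1 array per line. Where no clause gives it, the cause was not tested. Another scaling or pseudocount, or a filter on low values, kept the difference at 171 to 300 calls, 181 with no filter and 300 after quantile normalization. Of 42 called named genes, 17 were called without each of the 6 lines in turn; all 42 lost their call without the block, and over 1302 pairs of gene and alternative 1086 kept and 216 lost it. Direction turned for 4 named genes without a call, whose values with a line left out ran up to 0.970 (Sdf2l1) and 0.924 (Cd5) and down to -1.36 (Epor) and -0.733 (Col1a2): Epor at 0.0806 without Atm-/- line 1, Cd5 at -0.324 without Atm-/- line 2 and -0.142 without Scid line 3, Col1a2 at 0.236 without Atm-/- line 2 and 0.164 without Scid line 1, and Sdf2l1 at -0.0258 without Atm-/- line 3. Signals near the array median limit the weak genes, such as Relb, Ccdc166 and Mir155hg.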
